A study of Mus musculus with 23 samples.

Results

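The genes described here are the orphan, adhesion and purinergic G protein-coupled receptors of mouse liver lymphocytes. They were taken by symbol: every gene whose name begins with Gpr and a number, with Adgr, or with P2ry and a number. The rule found 115 of the 35645 genes in the RNA table, of which 78 were Gpr, 28 Adgr and 9 P2ry genes. Of these, 69 had enough counts to be tested (40 Gpr, 21 Adgr and 8 P2ry). The other 46 never exceeded 7.51 CPM in any library (counts scaled to a common library size, on TMM-adjusted totals), and 6 of them had no count in any. In the chromatin table, 177 of 51412 peaks were assigned by the authors to 71 of these genes.

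RNA was sequenced from 4 populations sorted from mouse liver, 15 libraries from 6 mice, with 1 mouse per library. NK cells carried the S1pr5eGFP reporter (4 libraries, mice 1, 4, 5 and 6). The type 1 innate lymphoid cells (ILC1s) were parted by granzyme C, a granule protease, and by a fate-map mark that keeps a record of its past expression. Double-positive ILC1s (DP, GzmC+GzmcFM+) and fate-mapped single-positive ILC1s (FMSP, GzmC-GzmcFM+) gave 4 libraries each, both from mice 3, 4, 5 and 6. Double-negative ILC1s (DN, GzmC-GzmcFM-) gave 3, from mice 2, 4 and 6. The values of single libraries below follow this order of mice. Chromatin accessibility was measured by ATAC-seq with 2 libraries each for liver NK cells, spleen NK cells, liver ILC1s and salivary gland ILC1s. For these libraries the sample labels name the reporter populations, whereas the design text gives surface gates with CD49a and CD49b, so which ILC1s they hold is not settled by the labels. The labels used here give no age, strain or treatment for the animals, nor what drives the fate-map recombinase.

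G protein-coupled receptors cross the membrane with a bundle of helices and pass signals of lipids, nucleotides, protons or neighbouring cells to heterotrimeric G proteins. Adhesion receptors add a long extracellular part that is cut from the membrane part and binds matrix or other cells, while P2Y receptors and their orphan relatives respond to nucleotides, nucleotide sugars or lysophospholipids released by stressed or dying cells. In lymphocytes, receptors of this kind steer migration and tissue residence and set the threshold of activation, several through cyclic AMP. Some of the genes carry such a name without a ligand: they encode proteins of the Golgi or the lysosome.

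The RNA libraries held 51641248 to 73309063 counts and the ATAC libraries 5609587 to 26944890. All 5 markers of ILC1s were higher and all 5 markers of NK cells lower in the mean of the 3 ILC1 populations than in NK cells, and Gzmc itself was 1.01 to 3.92 CPM in NK libraries, rising over DN (10.2 to 13.6) and FMSP (21.8 to 42.0) to DP (320 to 496). The libraries of mice 1 to 3 (1 per population) stood apart from those of mice 4 to 6 on the leading principal component, which held 19.4% of the variance. The 3 libraries DN of mouse 2 and FMSP of mice 5 and 6 summed to 513, 655 and 1461 CPM over 5 hepatocyte markers, against 56.4 to 338 in the other libraries. Of the markers of other cells, 6 of 8 T cell genes were called higher in the ILC1 mean. The sum of the 8 was 22.6 to 77.8 CPM in the NK libraries, and it was 618 to 1789 in DN, 597 to 1620 in FMSP and 426 to 1219 in DP. In DP against NK only Cd3g of the 8 was called. Cd3g alone was 156 to 558 CPM in DN, 386 to 949 in FMSP and 316 to 1153 in DP. Trac was 180 to 331 CPM in DN, 30.6 to 286 in FMSP and 13.3 to 45.5 in DP. Also in the ILC1 mean, 1 of 5 hepatocyte markers (Trf) was higher. Of 6 dendritic cell and monocyte markers, 1 was higher (Xcr1) and 2 lower (Ly6c2 and Ccr2). The 8 Kupffer cell markers, none of them called, summed to 254 CPM in DN of mouse 2 and 195 in DP of mouse 3. Their sums were 12.6 to 122 CPM in the other libraries. The part of T cell RNA in the receptor results was not tested, nor was that of these other cells.

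Between ILC1s and NK cells, 13 of the 69 tested receptors differed. In the mean of DP, FMSP and DN against NK, 8 were higher (among them Gpr34, Adgrg3, Adgrg5, Adgrl1, Gpr55, Gpr183 and Gpr18) and 5 lower (P2ry14, Gpr171, Gpr137b, Gpr137b-ps and Gpr25). A call here is an adjusted p below 0.05 in edgeR's quasi-likelihood test, adjusted over all genes by the Benjamini-Hochberg method. These 13 are 18.8% of the receptors tested, against 5.92% of all 17124 genes (2.9% higher and 3.02% lower). The median log2 fold change over the tested receptors was 0.23, against 0.08 over all genes. Its sign turned without the 3 libraries high in hepatocyte markers (-0.45, all genes -0.04) and without FMSP of mouse 6 (-0.07, all genes 0.06), and it was 0.07 without NK of mouse 1 (all genes 0.08). Against the same NK libraries, 8 receptors were called in DP (6 higher and 2 lower, background 4.08%, of which 2.51% higher and 1.58% lower). There were 9 in FMSP (6 and 3, background 4.07%, 2.48% and 1.59%) and 7 in DN (5 and 2, background 2.99%, 1.81% and 1.18%). DESeq2 called 17 in DP (background 9.81%), 17 in FMSP (9.53%) and 16 in DN (9.6%). These 3 comparisons share their NK libraries, so they do not count as separate support. In a sorted bulk sample, fewer cells that express a gene and less RNA per cell cannot be told apart. Without NK of mouse 4, 5 or 6 the calls in the ILC1 mean fell from 13 to 8 (8 of the 13 kept in each). With the mouse as a block, 13 receptors were called in DP (background 9.62%) and 15 in FMSP (background 9.82%), and within mice 4 to 6 there were 13 in DP (background 9.17%). Mice 1 and 2 gave 1 library each. In any fit blocked by mouse, NK of mouse 1 and DN of mouse 2 therefore do not bear on differences between populations. Such a fit overlaps the one within mice 4 to 6 and is not separate support. The split of higher to lower calls was 5 to 3 in DP with DESeq2's size factors in place of TMM, and 6 to 1 in DN with library totals.

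**Figure D1:**
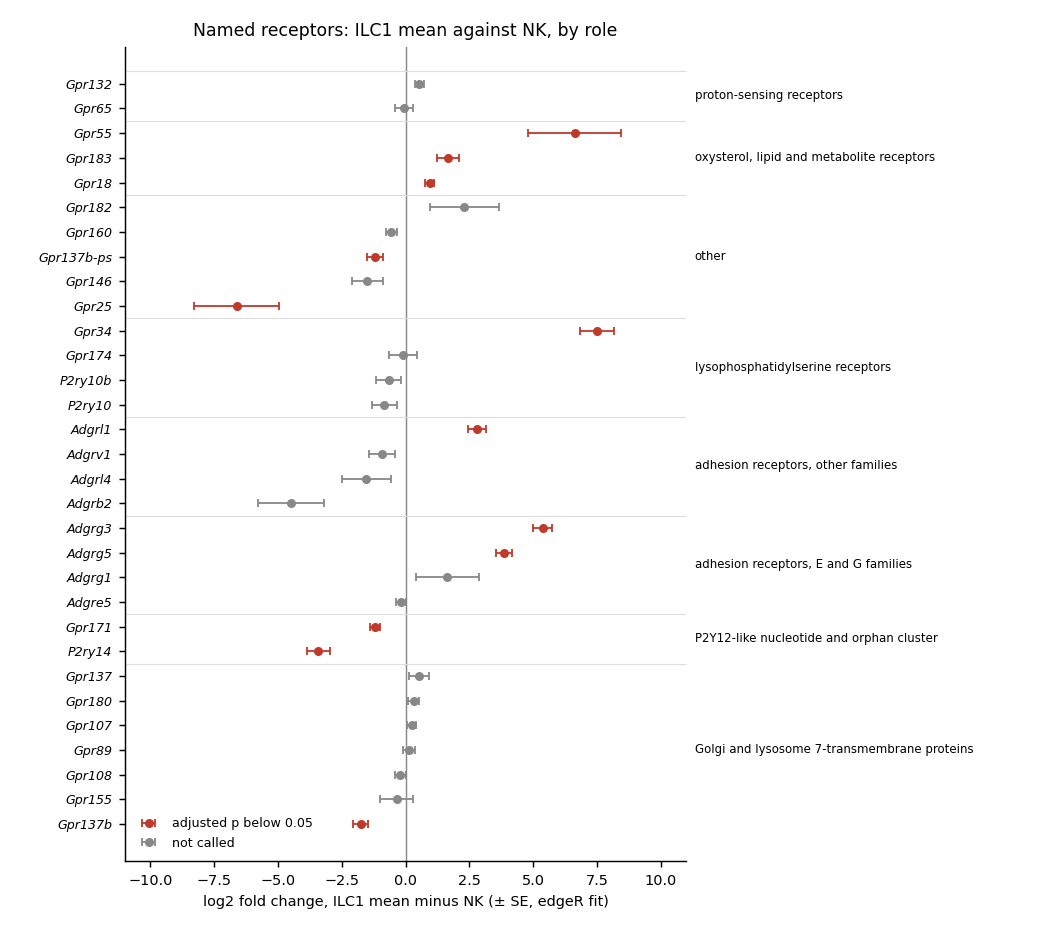
Log2 fold change of 31 named receptors, mean of the 3 ILC1 populations minus NK (x axis, points with SE from the edgeR fit), grouped by role on the y axis; red points passed an adjusted p of 0.05 and grey points did not. Gpr34 at 7.49 is the furthest to the right of the called genes, and Gpr25 and P2ry14 are the furthest to the left, at -6.62 and -3.42.

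Among the receptors for lysophosphatidylserine, a lipid exposed and shed by dying and activated cells, Gpr34 was higher in every ILC1 population and its 3 relatives were not called. Gpr34, a Gi-coupled receptor, lies on chromosome X within the interval of Cask (RefSeq, GRCm38.p6, chrX:13622650-13640859). Its levels in the NK libraries were 0.225, 0.114, 0.681 and 0.464 CPM. The DN libraries had 15.6, 41.4 and 82.5 CPM, the FMSP libraries 39.4, 68.6, 79.5 and 98.1, and the DP libraries 50.2, 113, 108 and 93.0. The lowest ILC1 library was above the highest NK library, and within each ILC1 population the library of mouse 2 or 3 was the lowest. The ILC1 mean differed from NK on the log2 scale by 7.49 ± 0.67 (SE, adjusted p = 5.53e-06), with 7.93 in DP, 7.57 in FMSP and 6.96 in DN. Cask, whose interval overlaps, stayed between 0.0170 and 11.7 CPM in all libraries, and whether counting used the strand is not given in the sources used here.

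The 3 other lysophosphatidylserine receptors sit side by side on chromosome X: P2ry10, P2ry10b and Gpr174, of which Gpr174 is Gs-coupled. Their levels differed between the mice. Gpr174 ran from 10.1 to 23.2 CPM in the 4 libraries of mice 1 to 3 and from 51.8 to 97.7 in the 11 of mice 4 to 6, with no overlap. P2ry10 likewise ran from 7.56 to 26.8 CPM in mice 1 to 3 and from 35.6 to 126 in mice 4 to 6. Over all libraries neither was called between the ILC1 mean and NK (P2ry10 log2 -0.84 ± 0.49, adjusted p = 0.430; Gpr174 -0.10 ± 0.56, adjusted p = 0.971). Within mice 4 to 6, P2ry10 was 92.4 to 126 CPM in NK and 35.6 to 78.1 in ILC1 libraries, without overlap. The fit to these libraries gave -0.82 (adjusted p = 0.0158), and the fit blocked by mouse gave -0.83 (adjusted p = 0.0209). Both fits rest on the libraries of mice 4 to 6, so they are not separate support. Gpr174 stayed uncalled within mice 4 to 6, where its log2 difference was -0.01. P2ry10b was called in FMSP against NK only in the fit blocked by mouse (-1.50, adjusted p = 0.0461).

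**Figure D2:**
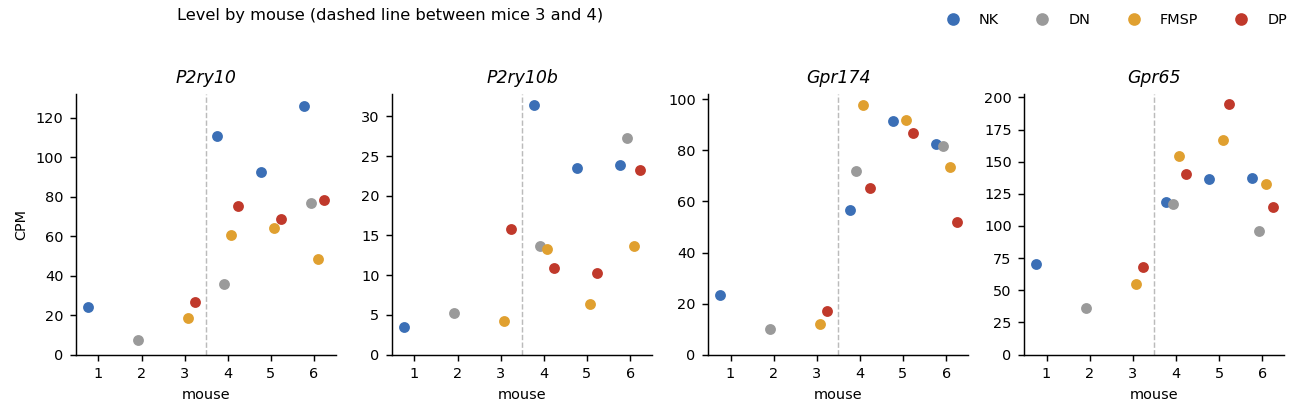
CPM (y axes, from 0) of P2ry10, P2ry10b, Gpr174 and Gpr65 in each of the 15 RNA libraries, by mouse (x axis) and population (colour). For P2ry10, Gpr174 and Gpr65 every library of mice 1 to 3, left of the dashed line, is lower than every library of mice 4 to 6; for P2ry10b they overlap.

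The P2Y12-like cluster on chromosome 3 holds P2ry14, Gpr171, P2ry12 and P2ry13, among others, and P2ry14 and Gpr171 lie inside the interval of Med12l. Of its 4 tested members, 2 were lower in the ILC1 mean. The ADP receptors P2ry12 and P2ry13 were at most 12.2 and 4.76 CPM in any library and were not called. Among the P2Y1-like nucleotide receptors, P2ry2, P2ry4 and P2ry6 were at most 3.63, 0.464 and 6.02 CPM and not called either. P2ry14, a Gi-coupled receptor for UDP-glucose and UDP, had 11.2, 20.8, 22.9 and 25.1 CPM in the NK libraries. It had 1.89, 2.25 and 3.11 CPM in DN, 2.36, 2.36, 0.793 and 0.635 in FMSP, and 1.62, 0.585, 2.96 and 1.88 in DP libraries. No ILC1 library reached the lowest NK library, that of mouse 1. In the ILC1 mean the log2 fold change was -3.42 ± 0.45 (adjusted p = 0.000198), with -3.50 in DP, -3.70 in FMSP and -3.05 in DN. The DN call (adjusted p = 0.0315) ended in the fit blocked by mouse (0.0905), without the 3 libraries high in hepatocyte markers (0.0690), without any 1 of the 3 DN libraries or without NK of mouse 4, 5 or 6 (0.0751 to 0.107).

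Gpr171, an orphan-cluster receptor for which a neuropeptide ligand has been described, had 222, 359, 370.2 and 388 CPM in the NK libraries. It had 69.9, 149.8 and 161 CPM in DN, 119, 158, 143 and 129 in FMSP, and 167, 208, 170.2 and 171 in DP libraries. All ILC1 libraries lay below all NK libraries, although DP of mouse 4 came close to NK of mouse 1. Against NK, the log2 value of the ILC1 mean was -1.20 ± 0.20 (adjusted p = 0.00121). In DP alone it was -0.90 ± 0.25 and not called (adjusted p = 0.0619), but the fit blocked by mouse called it (-1.01, adjusted p = 0.000272). In DN it was -1.40 ± 0.28 (adjusted p = 0.0108), a call lost without the 3 libraries high in hepatocyte markers (0.0519), with library totals (0.0561) and in the fit to DN and NK alone (0.108). Med12l, which spans both genes, had between 0 and 9.75 CPM in all libraries.

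The 250 bases upstream of a RefSeq start of P2ry14 are shown (RefSeq, GRCm38.p6, chr3:59131329-59131578, minus strand, 5′ to 3′). That start lies in a promoter peak of the gene that was less accessible in liver ILC1s. Most of the window falls between this peak and the next such peak, and 46 bases fall in the peak that holds the start. Other starts lie in the same peak, and among their windows this is the one that holds motif matches. Capitals mark the matches to 2 motifs bound by factors of these lymphocytes, the T-box letters AGGTGT and the letters of AP-1 sites, TGANTCA, searched on both strands. The RUNX letters TGTGGT and the ETS letters AGGAAG were searched too and had no match in this window.
P2ry14: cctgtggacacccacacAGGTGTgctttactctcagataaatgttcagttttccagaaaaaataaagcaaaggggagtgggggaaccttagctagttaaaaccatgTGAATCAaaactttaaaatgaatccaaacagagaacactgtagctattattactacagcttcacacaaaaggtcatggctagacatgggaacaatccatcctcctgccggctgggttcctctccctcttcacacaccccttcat
Over 32851 RefSeq windows of the same length, 11.8% hold AGGTGT and 6.75% hold TGANTCA. Both marked matches lie outside the peak that holds the start. The windows of other P2ry14 starts at chr3:59131119-59131368 and chr3:59130763-59131012 lie wholly inside that peak and hold no match to any of the motifs searched. Another, chr3:59153493-59153742, lies in no peak of the gene and holds an AP-1 match and an ETS match. The matches describe the sequence and do not show binding.

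Of the receptors for oxysterols and other lipids, 3 of 5 tested members were called, all higher in ILC1s. Gpr183, known as EBI2, is an oxysterol receptor that guides lymphocyte migration. Its levels were 9.01, 1.82, 4.61 and 4.34 CPM in NK libraries, 25.4, 37.6 and 24.5 in DN, 9.91, 17.9, 19.3 and 15.6 in FMSP, and 5.25, 5.90, 8.78 and 13.9 in DP. DN libraries were above all others, and the DP libraries overlapped NK. The log2 fold change was 2.56 ± 0.50 in DN (adjusted p = 0.00966), 1.67 ± 0.47 in FMSP (0.0645, not called) and 0.78 ± 0.46 in DP (0.499, not called). The mean of the 3 was 1.67 ± 0.42 (adjusted p = 0.0267). That call was lost without NK of mouse 4, 5 or 6 or DN of mouse 4 (0.0604 to 0.0949) and without the 3 libraries high in hepatocyte markers (0.0728). The FMSP call was gained in the fit blocked by mouse (2.37, adjusted p = 0.00681) and in the fit without NK of mouse 1 (2.12, adjusted p = 0.0209). Of the T cell markers, Cd5 ran from 14.8 to 23.4 CPM in DN, 1.68 to 17.5 in FMSP, 0 to 1.63 in DP and 0 to 0.0748 in NK libraries. Cd3e ran from 165 to 536 CPM in DN, 32.4 to 304 in FMSP, 14.6 to 62.4 in DP and 1.56 to 22.1 in NK libraries. Cd3d, Cd8a and Trac also had their highest library in DN, but Cd3g, Cd4 and Cd8b1 did not. Cd3g ran from 156 to 558 CPM in DN, 386 to 949 in FMSP, 316 to 1153 in DP and 2.07 to 16.7 in NK libraries. The part of T cell RNA in the Gpr183 result was not tested. A fit to the DN and NK libraries alone also ended the DN call (2.57, adjusted p = 0.0609).

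Gpr18, a lipid receptor next to Gpr183 on chromosome 14, had 75.0, 45.4, 75.8 and 60.9 CPM in NK libraries. DN libraries had 119, 94.8 and 119 CPM, FMSP 191, 151, 135 and 120.0, and DP 132, 87.1, 131 and 106. The ILC1 libraries were all above the NK libraries, by a narrow margin for DP of mouse 4. The fitted log2 difference of the ILC1 mean was 0.94 ± 0.19 (adjusted p = 0.00625). It was 1.22 ± 0.22 in FMSP (0.00396), 0.82 ± 0.22 in DP (0.0490) and 0.78 ± 0.23 in DN, which was not called (0.0948). The DP call was lost when any of its 8 libraries except DP of mouse 4 was left out (0.0572 to 0.165), and the DN call was gained in the fit blocked by mouse (0.0190). Ubac2, which spans Gpr18 and Gpr183, had 195 to 471 CPM with overlapping populations.

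Gpr55, a receptor for lysophosphatidylinositol, was close to absent from NK libraries: 0.432 CPM in mouse 1 and no count in mice 4, 5 and 6. DN libraries had 0.635, 11.2 and 9.99 CPM, FMSP 21.0, 11.2, 21.2 and 7.82, and DP 9.0, 0.0158, 20.7 and 12.7. Values spread widely within each ILC1 population, and DP of mouse 4 lay at the NK level. The ILC1 mean differed from NK on the log2 scale by 6.62 ± 1.83 (adjusted p = 0.0452). It was lost in 12 of the 15 fits that leave out a library (0.0536 to 0.120) and kept only without NK of mouse 1, DN of mouse 2 or DP of mouse 4. With the mouse as a block it was called (0.0152), as was each single population, at adjusted p = 0.0246 in DP, 0.0189 in FMSP and 0.0263 in DN.

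Proton-sensing receptors respond to acid outside the cell. Gpr65, which is coupled to Gs, ranged from 70.2 to 137 CPM in NK and from 36.5 to 195 in ILC1 libraries and was not called (-0.06 ± 0.34, adjusted p = 0.973). As with P2ry10 and Gpr174, the libraries of mice 1 to 3 were lower (36.5 to 70.2 CPM) than those of mice 4 to 6 (95.9 to 195). Gpr132, another proton sensor, was not called over all libraries (0.54 ± 0.18, adjusted p = 0.116). It was called within mice 4 to 6 (0.63, adjusted p = 0.0298), where NK libraries ran from 36.2 to 41.6 CPM and ILC1 libraries from 42.9 to 72.95, and in the fit blocked by mouse (0.61, adjusted p = 0.0171).

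The panels of 12 called receptors show each library, and the ILC1 populations differ in how they are ordered: Adgrg3 has its highest mean in DP, Gpr183 in DN, and Adgrg5 and Adgrl1 are at like levels in all 3.

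**Figure D3:**
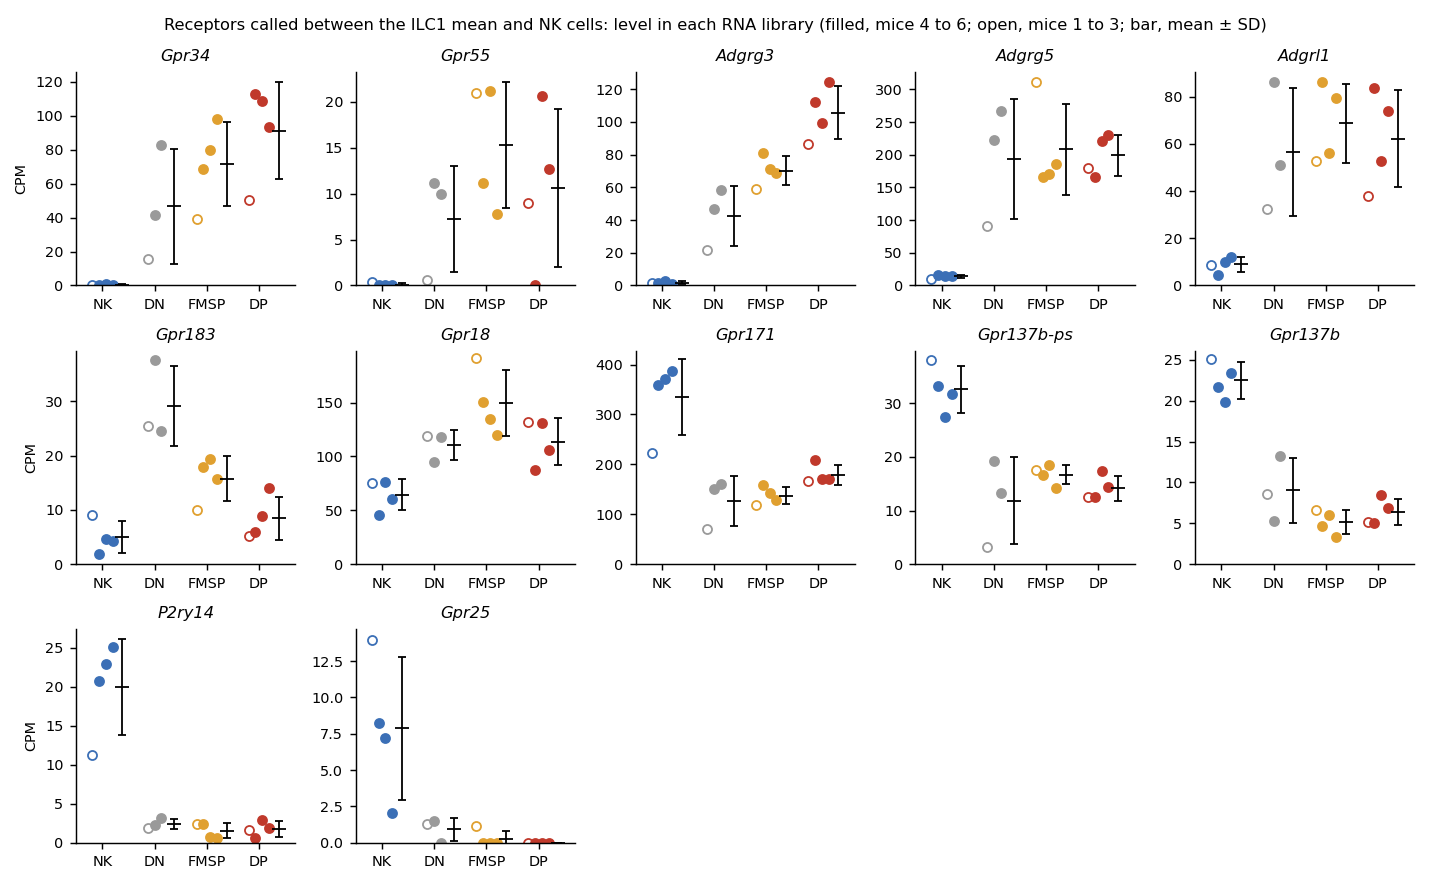
CPM (y axes, linear and from 0, own scale per panel) of 12 called receptors in NK, DN, FMSP and DP libraries (x axes); filled points are mice 4 to 6, open points mice 1 to 3, and the bar to the right of each population is its mean ± SD. Gpr34, Adgrg3, Adgrg5 and Adgrl1 separate every ILC1 library from every NK library, and P2ry14, Gpr171, Gpr137b, Gpr137b-ps and Gpr25 do so in the other direction.

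Adhesion receptors gave 3 of the 4 calls with the smallest adjusted p, all higher in ILC1s. Adgrg3, Adgrg5 and Adgrg1 are neighbours on chromosome 8, and the first 2 were called. Adgrg3, a Go-coupled receptor also known in granulocytes, had 1.61, 1.25, 2.79 and 0.913 CPM in NK libraries. DN libraries had 22.0, 47.1 and 58.2 CPM, FMSP 59.1, 80.8, 71.4 and 69.0, and DP 86.7, 112, 99.3 and 124. The 4 populations did not overlap one another at all, in the order NK, DN, FMSP, DP. The ILC1 mean was 5.37 ± 0.38 log2 above NK (adjusted p = 1.12e-06). The 5 neutrophil markers summed to 29.6 to 52.2 CPM in NK libraries, 33.6 to 136 (DN), 19.4 to 183 (FMSP) and 12.9 to 76.2 (DP), and none of them was called in the ILC1 mean.

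Adgrg5, a Gs-coupled receptor, had 10.6, 15.9, 14.2 and 14.6 CPM in NK libraries. DN libraries had 91.0, 223 and 266 CPM, FMSP 312, 166, 171 and 185, and DP 179.6, 166, 222 and 231. The ILC1 populations overlapped one another and none reached down to NK. The log2 fold change was 3.86 ± 0.32 for the ILC1 mean (adjusted p = 2.78e-06) and between 3.81 and 3.91 in the single populations. Adgrg1, which lies between both genes and marks cytotoxic lymphocytes, was not called. It ran from 1.11 to 4.03 CPM in NK and from 0 to 39.8 in ILC1 libraries, with DN of mouse 2 the highest.

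Adgrl1, a latrophilin that binds teneurins and FLRT proteins on other cells, had 8.86, 4.56, 9.99 and 12.2 CPM in NK libraries. DN libraries had 32.5, 86.1 and 50.9 CPM, FMSP 52.9, 86.4, 56.2 and 79.3, and DP 38.1, 83.7, 53.0 and 74.0. Every ILC1 library was above every NK library, with the lowest in DN of mouse 2. The ILC1 mean was 2.81 ± 0.35 log2 higher (adjusted p = 0.000121). Adgre5, the leukocyte adhesion receptor CD97, was plentiful in all libraries (1075 to 2190.1 CPM in NK, 786 to 2202 in ILC1s) and was not called (-0.19 ± 0.20, adjusted p = 0.754).

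Adgrb2, of the brain angiogenesis inhibitor family, was at 31.1, 13.5, 9.96 and 7.02 CPM in NK libraries and between 0 and 2.11 in all ILC1 libraries, without overlap. Its fold change of -4.51 ± 1.29 missed the threshold (adjusted p = 0.0551), passed it without FMSP of mouse 3 (0.0425) or of mouse 4 (0.0483), and was at 0.176 in the fit blocked by mouse. Adgrl4, best known from endothelium, ran from 8.46 to 31.9 CPM in NK and from 0.139 to 21.1 in ILC1 libraries (-1.53 ± 0.96, adjusted p = 0.477). Without the 3 libraries high in hepatocyte markers it was called (-2.98, adjusted p = 0.0401). In the NK libraries the endothelial markers Stab2, Kdr and Cdh5 were at most 1.58, 1.47 and 1.90 CPM and Lyve1 had no count. Oit3 and Clec4g were at most 2.79 and 6.20 CPM there. The part of endothelial RNA in the levels of Adgrl4 was not tested. Pecam1, which lymphocytes also express, made up most of the endothelial sum (64.0 to 107 CPM in NK, 46.9 to 174 in ILC1 libraries). Gpr182, an endothelial chemokine-binding receptor, was highest in FMSP of mouse 6 and DN of mouse 6 (23.1 and 21.5 CPM), whose endothelial sums were 174 and 137 CPM. The DP libraries of mice 3, 5 and 6 had sums of 139, 155 and 151 CPM with Gpr182 at 0.844, 4.63 and 8.31 CPM. The part of endothelial RNA in the levels of Gpr182 was not tested.

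The promoters of Adgrl1 and Adgrl4 are shown because each lies wholly inside a peak and these peaks moved in opposite directions in liver ILC1s: log2 1.16 for Adgrl1 and -1.12 for Adgrl4. The windows are the 250 bases upstream of a RefSeq start (GRCm38.p6, plus strand, 5′ to 3′), chr8:83899848-83900097 for Adgrl1 and chr3:151437632-151437881 for Adgrl4. Capitals mark the match to the ETS letters AGGAAG, which for Adgrl1 is on the other strand and so reads CTTCCT.
Adgrl1: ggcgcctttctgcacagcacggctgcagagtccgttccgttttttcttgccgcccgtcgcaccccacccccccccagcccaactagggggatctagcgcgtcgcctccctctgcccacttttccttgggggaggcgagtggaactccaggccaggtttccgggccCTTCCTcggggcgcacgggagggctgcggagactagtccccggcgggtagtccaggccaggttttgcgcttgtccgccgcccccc
Adgrl4: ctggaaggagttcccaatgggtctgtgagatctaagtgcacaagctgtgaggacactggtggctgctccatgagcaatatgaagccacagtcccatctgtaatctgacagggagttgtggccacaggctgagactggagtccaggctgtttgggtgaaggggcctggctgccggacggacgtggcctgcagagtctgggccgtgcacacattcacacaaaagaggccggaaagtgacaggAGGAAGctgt
These letters occur in 29.5% of the 32851 RefSeq windows of that length. Neither window holds a match to the T-box or AP-1 letters given above on either strand.

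Among the Golgi and lysosome proteins, 1 of 8 was called. Gpr137b, a lysosomal membrane protein that acts on mTORC1 signalling, had 25.1, 21.7, 19.9 and 23.4 CPM in NK libraries. DN libraries had 8.60, 5.27 and 13.2 CPM, FMSP 6.63, 4.71, 5.98 and 3.32, and DP 5.18, 5.01, 8.42 and 6.91. All ILC1 libraries were below all NK libraries (ILC1 mean -1.75 ± 0.29, adjusted p = 0.00123). Against NK, Gpr137b was called in DP and in FMSP but not in DN. Gpr137b-ps, a near-identical copy elsewhere on chromosome 13, was also lower: 27.5 to 38.1 CPM in NK and 3.16 to 19.2 in ILC1 libraries (-1.21 ± 0.31, adjusted p = 0.0288). Its call was lost without any 1 of the 4 NK libraries (0.0568 to 0.0962), and the split of reads between the pair is uncertain. The 6 others that are named (Gpr107, Gpr108, Gpr89, Gpr180, Gpr137 and Gpr155) were not called, and their log2 differences ran from -0.35 for Gpr155 to 0.53 for Gpr137.

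Gpr25, an orphan-type receptor of lymphocytes, was low throughout and lower in ILC1s. NK libraries had 13.98, 8.26, 7.22 and 2.02 CPM, DN 1.30, 1.48 and 0, and FMSP 1.12, 0, 0 and 0. No DP library had a count. Against a floor of 3 counts over the DP group, the NK mean was at least 639-fold higher than DP. That floor does not take in the spread between the NK libraries. Gpr25 was not called in DP against NK, nor in any edgeR fit that left out 1 library (adjusted p = 0.0850 to 0.133). The call of the ILC1 mean (adjusted p = 0.0352) was lost without NK of mouse 1, 4, 5 or 6 or any DN library (0.0544 to 0.0877). The remaining named receptors, Gpr160, Gpr146 and Adgrv1, were not called, with log2 differences of -0.56 ± 0.22, -1.50 ± 0.60 and -0.94 ± 0.51. The 37 tested receptors that are not named here stayed at or below a population mean of 8.60 CPM.

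No receptor was called among the ILC1 populations. In DP against DN, 0 of 69 were called by edgeR (background 0.0584%), with 10 at an unadjusted p under 0.05 (background 10.2%) and 7 called by DESeq2 (background 3.35%). In FMSP against DN it was 0 (background 0.00584%), with 4 unadjusted (background 6.8%) and 1 by DESeq2 (background 1.35%), and in DP against FMSP 0 (background 0.00584%), with 6 unadjusted (background 4.49%) and 2 by DESeq2 (background 1.13%). Differences between DP and DN with a low unadjusted p included those of Adgrg3 (1.32 ± 0.37, higher in DP, edgeR adjusted p = 0.301, DESeq2 0.0174) and Gpr183 (-1.78 ± 0.49, edgeR 0.301, DESeq2 0.00961). For Adgrg3 every DP library was above every DN library, and for Gpr183 every DP library was below. For Gpr34 the DN, FMSP and DP libraries overlapped (DP against DN 0.97 ± 0.56, edgeR adjusted p = 0.602).

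The partners of these receptors were counted by list. Over all genes, 5.92% were called in the ILC1 mean against NK (2.9% higher and 3.02% lower). Whether the shares of the lists differ from this was not tested. In the ILC1 mean against NK, 2 of 16 tested genes for making and breaking down ligands were higher: Cd38, an NAD glycohydrolase (1.79 ± 0.21, adjusted p = 5.84e-05), and Ada, which deaminates adenosine (1.79 ± 0.25, adjusted p = 0.000266). The median log2 fold change of the 16 was 0.04, against 0.08 over all genes. In DN, Entpd1, the ATP-cleaving ectoenzyme CD39, was lower than in NK (-1.13 ± 0.23, adjusted p = 0.0131). Of 6 tested purine receptors outside the P2Y family 2 were higher, the ATP-gated channels P2rx7 (6.37 ± 1.06, adjusted p = 0.00136) and P2rx4 (1.48 ± 0.31, adjusted p = 0.00889). The mean level of P2rx7 was 1.15 CPM in NK against 82.4 (DN), 117 (FMSP) and 91.7 (DP). Of 23 G protein subunits Gng2 was higher (0.88 ± 0.21) and Gnai3 lower (-0.89 ± 0.23). Of 10 receptor kinases and arrestins Grk6 was lower (-0.80 ± 0.21), and of 26 downstream effectors the phosphodiesterase Pde7a was higher (1.05 ± 0.26) and the small GTPase Rhoa lower (-0.71 ± 0.14).

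In the chromatin of the same genes, liver ILC1s differed from liver NK cells at 46 of 177 peaks (26.0%, background 18.7%). Of these, 16 were more and 30 less accessible (background 9.83% and 8.85%), and the median log2 difference was -0.24, against 0.00 over all peaks. Leaving out liver ILC1 replicate 2 left 23 calls and leaving out liver NK replicate 2 left 29. By the authors' peak types 65 of the 177 peaks were promoter peaks (36.7%, against 35.0% of all peaks), 57 intron, 19 exon and 36 intergenic peaks. The promoter peaks split 10 higher to 11 lower and the intron peaks 6 to 7, while all 6 called exon peaks and all 6 called intergenic peaks were lower. The shares of higher and lower calls over all peaks of each type are not given here. Whether these splits differ from those of other genes was not tested.

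Of the 13 receptors called in RNA, 8 had a promoter peak. At 6 of them the promoter peak with the most counts was called in the direction of the RNA, and at none in the opposite direction. The matching share over all genes called in RNA is not given here, and whether receptors differ from other genes in this was not tested. The Gpr34 promoter, chrX:13631418-13632428, had 8.09 and 7.88 CPM in liver NK and 20.2 and 17.8 in liver ILC1 libraries (1.24 ± 0.25, adjusted p = 1.29e-05). It was at 17.5 and 19.6 CPM in the salivary gland, and spleen NK was higher than liver NK at 13.6 and 10.5 CPM (0.59 ± 0.25, adjusted p = 0.0427).

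The Adgrg3 promoter, chr8:95020038-95021363, went from 16.1 and 14.2 CPM in liver NK to 30.1 and 33.8 in liver ILC1s (1.08 ± 0.20, adjusted p = 3.53e-06) and 48.2 and 45.0 in salivary gland ILC1s. The Adgrl1 promoter, chr8:83898979-83900608, went from 21.0 and 21.2 CPM to 40.4 and 53.5 (1.16 ± 0.20, adjusted p = 1.65e-07). The Gpr55 promoter, chr1:85961914-85963527, went from 13.8 and 11.3 CPM to 17.8 and 24.3 (0.75 ± 0.22, adjusted p = 0.00519), but its call was lost without liver NK replicate 2 (0.101) or liver ILC1 replicate 2 (0.322). Salivary gland ILC1s were higher still at Gpr55, with 38.1 and 36.5 CPM, and spleen NK cells lower, with 6.79 and 7.03 CPM. Adgrg5 had no promoter peak in the table: its exon peak chr8:94941508-94943129 had 13.97 and 12.2 CPM in liver NK and 23.9 and 14.3 in liver ILC1 libraries and was not called (0.52 ± 0.24, adjusted p = 0.116; 0.0496 without liver ILC1 replicate 2). Gpr18, Gpr183, Gpr25 and Gpr137b had no peak assigned.

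P2ry14 was less accessible in liver ILC1s at all 3 promoter peaks and an exon peak. The promoter peak with the most counts, chr3:59129529-59131374, had 26.4 and 29.1 CPM in liver NK and 18.1 and 12.2 in liver ILC1 libraries (-0.89 ± 0.20, adjusted p = 0.000259; 0.0618 without liver ILC1 replicate 2). The peak chr3:59131828-59132937 fell from 19.3 and 18.0 to 8.08 and 6.73 CPM (-1.35 ± 0.24, adjusted p = 1.41e-06). In salivary gland ILC1s this peak was at 15.9 and 18.2 CPM, 1.22 ± 0.23 above liver ILC1s (adjusted p = 1.25e-06), and the exon peak chr3:59113559-59114862, whose call in liver was lost without liver NK replicate 2 (0.0781) or liver ILC1 replicate 2 (0.126), stood at 33.4 and 34.3 CPM, above the liver NK libraries (16.4 and 20.1). The Gpr171 promoter nearby, chr3:59100543-59102410, was not called in liver: it had 28.3 and 35.1 CPM in liver NK and 27.1 and 34.8 in liver ILC1 libraries (-0.02 ± 0.19, adjusted p = 0.955), with 57.8 and 59.9 CPM in the salivary gland.

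**Figure D4:**
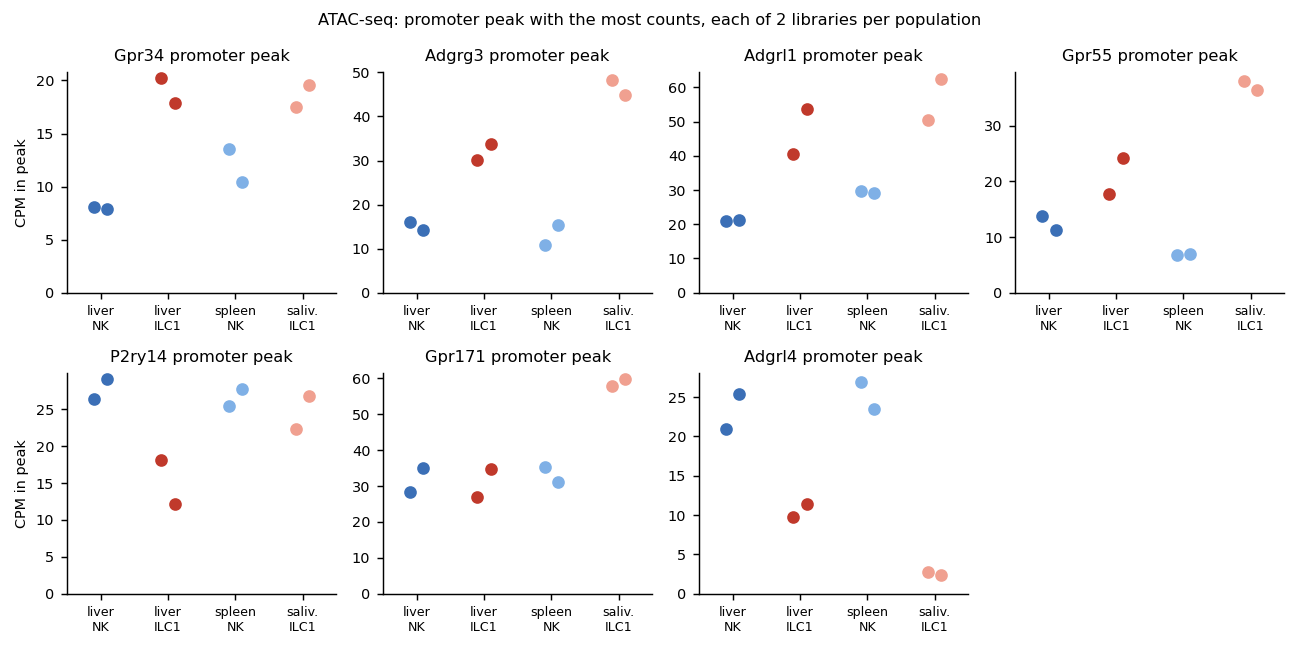
CPM in the promoter peak with the most counts (y axes, linear and from 0) of 7 receptors in the 4 ATAC populations (x axes); each point is 1 of 2 libraries. The Gpr34, Adgrg3, Adgrl1 and Gpr55 peaks are higher in both liver ILC1 libraries than in both liver NK libraries, P2ry14 and Adgrl4 are lower, and Gpr171 overlaps.

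Of 14 named receptors with a promoter peak and no RNA call, 4 had a called promoter peak in liver: Adgrb2 (-1.07 ± 0.23), Adgrl4 (-1.12 ± 0.23), Gpr146 (0.73 ± 0.20) and Gpr137 (0.58 ± 0.19). The Adgrl4 promoter, chr3:151437340-151438497, had 20.9 and 25.4 CPM in liver NK, 26.8 and 23.4 in spleen NK, 9.72 and 11.4 in liver ILC1 and 2.74 and 2.43 in salivary gland ILC1 libraries. Liver and spleen NK libraries overlapped and the salivary gland was the lowest, with a log2 difference of -2.05 ± 0.26 from liver ILC1s (adjusted p = 8.47e-14). The 2 promoter peaks of Gpr146 moved in opposite directions in liver ILC1s: -0.75 ± 0.22 at chr5:139380127-139381003 (adjusted p = 0.00642) and 0.73 ± 0.20 at chr5:139381822-139383318 (adjusted p = 0.00248). Each of these 2 calls was lost when 1 library was left out, the first without liver NK replicate 1 (0.126) or liver ILC1 replicate 1 (0.0545) and the second without liver ILC1 replicate 2 (0.0525). The call at Gpr137 was lost without either liver NK library or liver ILC1 replicate 2 (0.0591 to 0.113). An intron peak of Adgre4, chr17:55806087-55806958, was among the 5 receptor peaks with the smallest p, at 14.6 and 14.5 CPM in liver NK and 5.09 and 5.27 in liver ILC1 libraries (-1.49 ± 0.28, adjusted p = 3.47e-06).

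**Figure D5:**
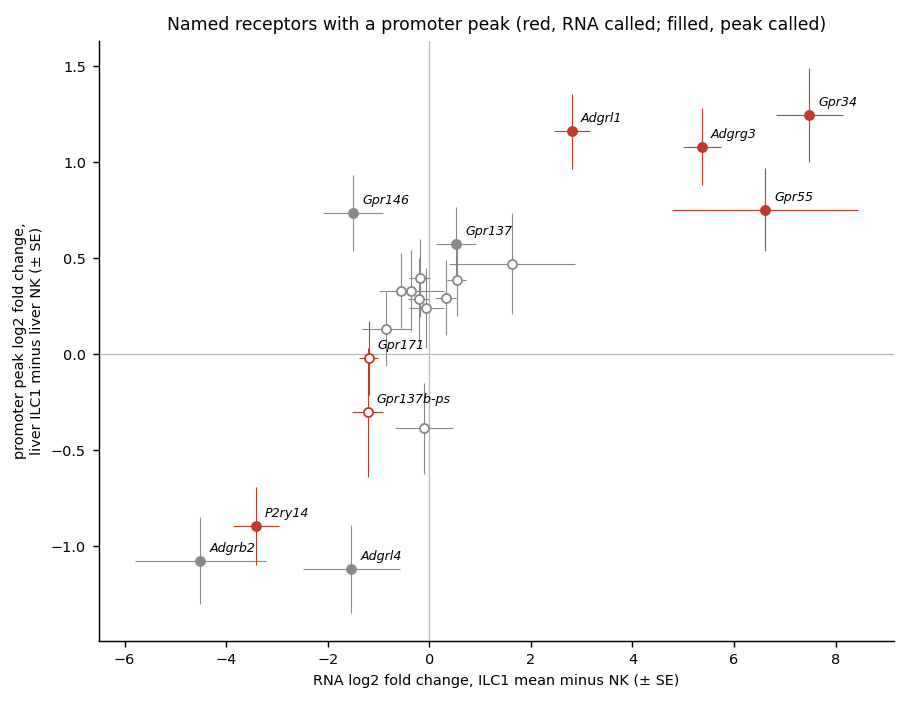
RNA log2 fold change of the ILC1 mean minus NK (x axis) and log2 fold change of the promoter peak with the most counts, liver ILC1 minus liver NK (y axis), for 21 named receptors with such a peak, with SE bars; red marks an RNA call and a filled point a peak call. Of the 7 red points, 5 are filled and lie in the upper right or lower left, and Gpr171 and Gpr137b-ps are open.

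Across organs more peaks differed. Salivary gland ILC1s differed from liver ILC1s at 95 of the 177 peaks (47 higher, 48 lower, background 48.7%, of which 22.8% higher and 25.9% lower), and spleen NK from liver NK at 61 (21 higher, 40 lower, background 40.6%, of which 20.9% and 19.8%). With scaling by library totals in place of TMM the splits were 39 to 60 and 4 to 69, and with DESeq2's size factors they were 49 to 45 and 20 to 40. The direction of the salivary gland split thus depends on the scaling. In spleen the lower calls were the more numerous under each scaling, but the size of the split depends on it. The mean of both ILC1 groups differed from the mean of both NK groups at 88 peaks (28 higher, 60 lower, background 44%, of which 21% and 23.1%), and liver libraries enter all of these comparisons. Without liver NK replicate 1 the spleen comparison had 18 calls, and without spleen NK replicate 1 it had 26. Within Gpr132, an intron peak at chr12:112857025-112857926 was at 26.8 and 26.7 CPM in liver ILC1s, 9.92 and 13.03 in liver NK, 16.6 and 12.4 in spleen NK and 5.47 and 5.19 in salivary gland ILC1 libraries. Liver ILC1s were above liver NK (1.23 ± 0.23, adjusted p = 5.07e-06) and the salivary gland was below liver ILC1s (-2.33 ± 0.23, adjusted p = 7.01e-22). At the P2ry10 intron peak chrX:107095959-107097455 the reverse held: liver ILC1s, at 14.2 and 20.1 CPM, were below liver NK at 29.2 and 32.0 (-0.82 ± 0.20, adjusted p = 0.000663), while the salivary gland was at 29.1 and 29.2 CPM.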

How the data were processed

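Per the submitters' processing notes, Salmon 1.6, DESeq2, Bowtie2, SAMtools and MACS2 were used with the mm10 build; the notes give no role or order for them. The deposited RNA table holds estimated counts per gene, as whole numbers, and the deposited ATAC table holds counts per peak, with the peak type and gene the authors assigned. Strand use in counting is not given in the sources used here, so overlapping genes and near-identical copies are uncertain. No column was left unmapped to a sample.

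Each table was fitted whole with edgeR 4.0.16 (R 4.3.3): filterByExpr with a minimum count of 10, TMM scaling, and robust quasi-likelihood tests, 2-sided, with 1 mean per population and no mouse term; the procedure was first tested on simulated data. Adjusted p-values are Benjamini-Hochberg over all 17124 genes or 51292 peaks tested, with calls below 0.05. Errors of log2 fold changes are SE from that fit, and CPM use TMM-adjusted library totals. RNA totals were 51641248 to 73309063 counts and ATAC totals 5609587 to 26944890. Molecular identifiers are not mentioned, so counting error is a lower limit. No pair of libraries agreed within sampling noise. The ATAC labels number replicates without saying whether one animal gave several populations, and p-values measure only the spread between these libraries.

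Deviations of RNA libraries from their population means correlated at a median of 0.113 for the same mouse (16 pairs, 0.0336 to 0.469). For different mice the median was -0.0266 (68 pairs, -0.327 to 0.447). The highest of these were NK of mouse 1 with FMSP (0.447) and with DP of mouse 3 (0.402). The mouse number comes from the labels and names the animal. ATAC libraries of the same number correlated at -0.120 to 0.179 (12 pairs) and were not treated as paired. Alternatives were DESeq2 1.42.0, its size factors, library totals, no count filter, the mouse as a block, mice 4 to 6 alone, leaving out 3 libraries high in hepatocyte markers, fits to the compared populations alone, and leaving out each library.

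Named were Gpr34, P2ry14, each receptor called in any of 7 RNA comparisons and each with a population mean of 10 CPM or more; of peaks, the promoter peak with the most counts and each called peak of these genes, and the 5 receptor peaks with the smallest p in liver. Receptors that mark other cell types may be given beside the markers, and P2ry12, P2ry13, P2ry2, P2ry4 and P2ry6 were named after their values were seen. The receptors, lists and tests were chosen with earlier results of these data known. Promoter windows and gene positions are from RefSeq, GRCm38.p6, the assembly named mm10; windows were found for 25 of the 32 named receptors. Some receptors are not reported here by name; the counts over all receptors include them.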

Additional observations from a re-analysis of the deposited data

Results flagged for a closer look

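For 95 combinations of a named receptor and a population of 4 libraries, the highest and lowest library were compared with the other 3 by Dixon's criterion, which chance meets in about 1 group in 20. It was met 7 times. In FMSP, the library of mouse 3 stood apart at 4 genes: Gpr137 at 37.5 CPM (others 7.55 to 9.02), Gpr155 at 6.99 CPM (others 12.4 to 13.1), Adgrg5 at 312 CPM (others 166 to 185) and Gpr25 at 1.12 CPM (others 0). In NK, the library of mouse 1 stood apart at Gpr55, with 0.432 CPM against 0, and at Adgrv1, with 2.44 CPM against 14.4 to 15.7. In DP, Gpr171 was 208 CPM in mouse 4 and 167 to 171 in the others.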

How the results depend on the processing

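No fold change of a named receptor or peak that was called changed sign under the alternatives run, but the median over the tested receptors did: without the 3 libraries high in hepatocyte markers it went from 0.23 to -0.45 in the ILC1 mean and from 0.45 to -0.42 in FMSP against NK, and without FMSP of mouse 6 it was -0.07 in the ILC1 mean. With DESeq2, 17 receptors were called in DP and in FMSP and 16 in DN against NK (edgeR 8, 9 and 7), 7 in DP against DN, 1 in FMSP against DN and 2 in DP against FMSP. With the mouse as a replicate block, 13 were called in DP and 15 in FMSP against NK, and within mice 4 to 6, 13 in DP. Leaving out each library gave 8 to 13 calls in the ILC1 mean, 7 to 9 in DP, 8 to 11 in FMSP and 6 to 8 in DN against NK, and 0 in each comparison among ILC1s. For peaks it gave 23 to 51 in liver, 76 to 91 for salivary gland against liver ILC1s, 18 to 49 for spleen against liver NK and 79 to 89 for both ILC1 against both NK groups. Whether ATAC libraries with the same replicate number share an animal is not given; that number as a block gave 46, 96, 64 and 88 peaks. Of the single-gene results under alternatives, 1155 kept their side of the threshold, 62 gained and 70 lost a call; of single-peak results 575 did, 9 gained and 40 lost one. Gpr34, Adgrg3, Adgrg5 and Adgrl1 kept their calls against NK in each alternative. With library totals the median over all genes went from 0.08 to 0.21 in the ILC1 mean, and of all peaks from -0.04 to -0.29 for salivary gland and -0.11 to -0.48 for spleen. The cause of these changes was not tested. In ATAC, 2 libraries per group limit the precision.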
